A study of Arabidopsis thaliana with 9 samples.

Results

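Terpene synthase genes of the TPS-a type were followed on 9 Affymetrix ATH1 arrays of Arabidopsis thaliana root RNA. The 10 loci were chosen from that gene family with the signals of these 9 arrays and their differences between lines already known, so the values below describe the members and support nothing by themselves. Every probe set annotated to exactly 1 of the loci was taken. Of the 10 loci, 9 had a probe set of their own, and these 9 probe sets stand among 22810 on the array, of which 22746 are not the maker's controls. The locus AT3G14540 had none and was not analysed here. The arrays covered 3 lines with 3 arrays each. They were cngc1-3 and cngc19, both labelled as T-DNA gene knock out lines in the Col-0 background, and Col-0, the wild type they were set against. The CNGC family consists of cyclic nucleotide-gated channels, through which cations cross plant membranes. All plants were at stage 3.90. They were put into hydroponics on day 18 and their roots were taken 7 days later, on day 25, and each tube held the bulked roots of many plants. The series is titled after caesium toxicity, but no caesium treatment is listed for any array. The labels do not say whether the tubes of a line came from separate cultures, so the spread between them may be technical.

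Terpene synthases turn prenyl diphosphates into the carbon skeletons of terpenes. Enzymes of the TPS-a type in Arabidopsis mostly make sesquiterpenes, and some make larger terpenes. Several members of the family are known to be expressed in roots, and in the Arabidopsis genome some of them lie next to genes of prenyl diphosphate synthases, the enzymes that supply their substrates. The members are named here by locus. Other gene families are named from background knowledge and not from the array annotation.

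Some arrays stood apart from the rest, and they bear on every value below. Over the 13648 probe sets bright enough to be tested, Col-0 replicate 2 correlated with the other 7 arrays outside Col-0 replicate 3 at -0.04 to -0.02, and Col-0 replicate 3 correlated with the same 7 arrays at 0.26 to 0.38. Spike-in control signal relative to the median array was 18.6 on Col-0 replicate 2 and 6.55 on Col-0 replicate 3, against 0.658 to 1.27 on the others. The array labelled cngc19 replicate 3 had a correlation of 0.950 with Col-0 replicate 1, against 0.735 to 0.841 with the mutant arrays besides it. Its label, or that of Col-0 replicate 1, is therefore open to doubt, which was not tested, and the labels are used as given. Without the array labelled cngc19 replicate 3, the median log2 difference of the members from Col-0 in cngc19 was -1.70, against -1.11 with it. RNA quality controls also varied. The ratio of 3' to 5' probe signal for GAPDH was 13.5 on cngc1-3 replicate 3 and 35.2 on Col-0 replicate 3, against 0.361 to 1.54 on the other 7 arrays, and for actin it was 98.5 on cngc1-3 replicate 3, against 0.536 to 14.4 on the other 8 arrays. No probe set was named here for either CNGC1 or CNGC19, so the knockouts were not checked through them. Differences from Col-0 are therefore given both against all 3 Col-0 arrays and against Col-0 replicate 1 alone, and leaving 1 array leaves no spread in Col-0 itself. As a check of tissue, 2 of 12 listed root markers had a probe set of their own. PYK10, a root beta-glucosidase, had 4690 to 5559 signal in cngc1-3, 3762 to 5434 in cngc19, 4398 in Col-0 replicate 1, and 261 and 448 in Col-0 replicates 2 and 3. EXPA7, an expansin of root hair cells, had 60.3, 115 and 23.0 in cngc1-3, 80.3, 75.1 and 121 in cngc19, and 195, 318 and 28.6 in Col-0. It was highest on Col-0 replicate 2, where PYK10 was lowest.

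AT3G29410, the locus against which the others were read, was high on 1 array of cngc19 and 1 array of Col-0 and on no array of cngc1-3. Its MAS5 signal, a linear brightness value, was 48.4, 62.2 and 51.6 in cngc1-3, 29.8, 44.6 and 3456 in cngc19, and 1336, 119 and 11.3 in Col-0. The 3 cngc1-3 arrays lay close together, whereas cngc19 and Col-0 each held 1 array far above its other 2, and the lines overlapped. The signal on cngc19 replicate 3 was 55.5 times, and that on Col-0 replicate 1 was 21.5 times, the highest value among the other 5 mutant arrays. In roots bulked from many plants, fewer cells that express a gene and less RNA per cell cannot be told apart.

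The spread of AT3G29410 within lines differed widely. Its highest value was 1.29 times its lowest in cngc1-3, 116 times in cngc19 and 118 times in Col-0. On the log2(signal + 16) scale, its SD within cngc19 was 3.49, rank 3 of 22746 non-control probe sets, whose median SD was 0.27. Within Col-0 its SD was 2.83 against a median of 0.96, rank 280. Within cngc1-3 its SD was 0.15 against a median of 0.28, so in that line the probe set varied less than most.

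**Figure D1:**
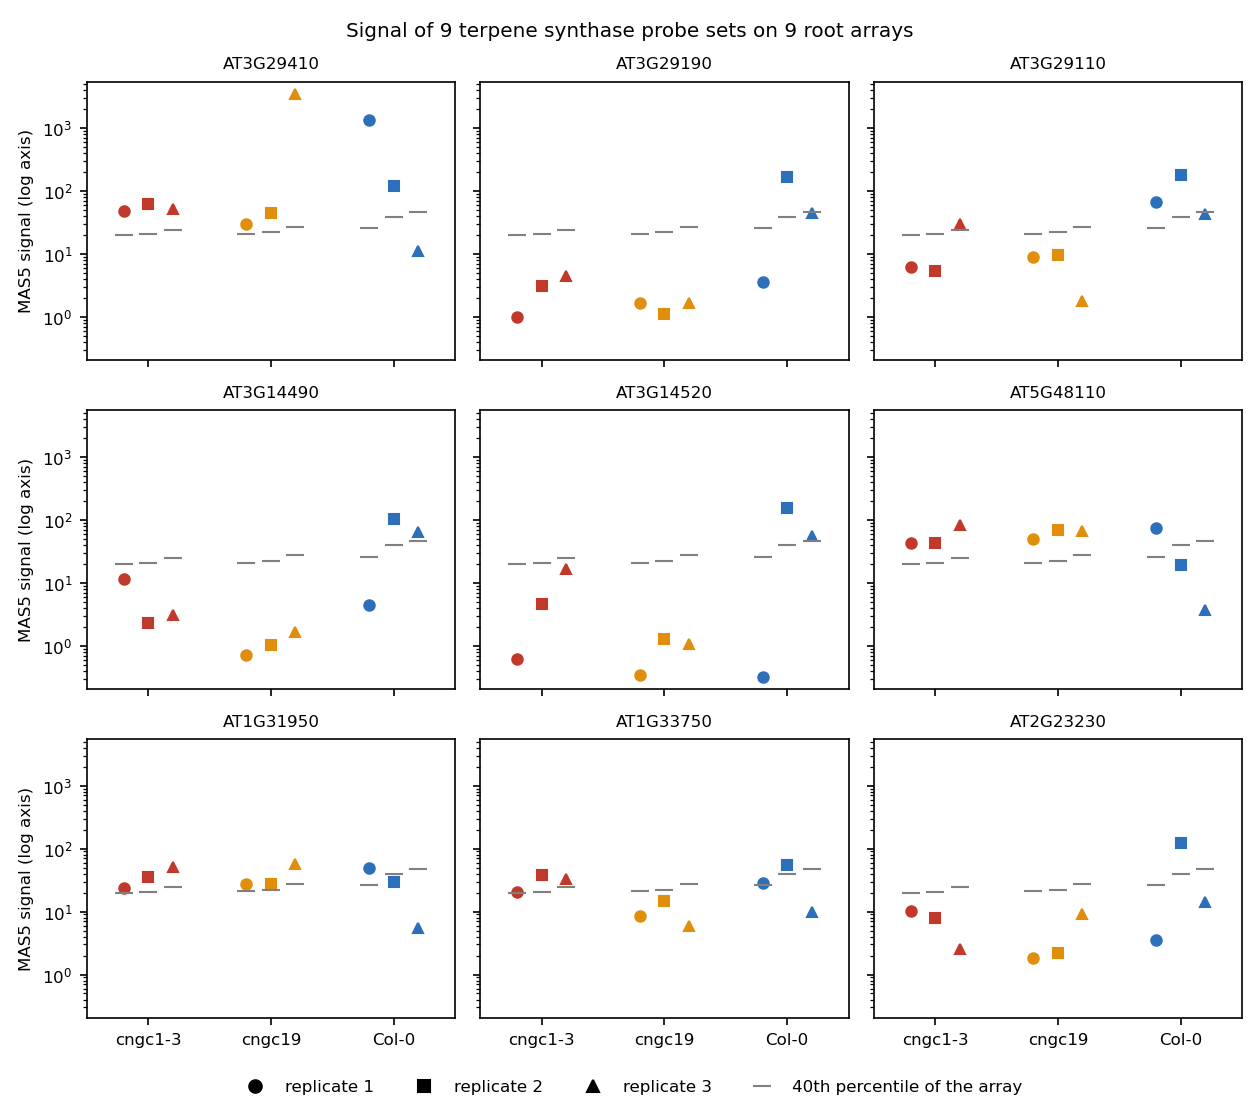
MAS5 signal (log axis) of the 9 terpene synthase probe sets, with 1 panel per locus, 1 point per array and arrays grouped as cngc1-3, cngc19 and Col-0, where grey dashes mark the 40th percentile of each array. AT3G29410 reaches 3456 on cngc19 replicate 3 and 1336 on Col-0 replicate 1, while 6 of the 9 probe sets are highest on Col-0 replicate 2.

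The mean signal of AT3G29410 was 54.1 ± 7.23 in cngc1-3, 1177 ± 1974 in cngc19 and 488.5 ± 735.6 in Col-0 (SD, n = 3 each). The SD was larger than the mean in both cngc19 and Col-0. The difference of mean log2(signal + 16) was -1.29 (SE 1.58) for cngc1-3 minus Col-0, 0.32 (SE 1.58) for cngc19 minus Col-0 and -1.61 for cngc1-3 minus cngc19. Single arrays set these directions. Without Col-0 replicate 1, the difference of cngc1-3 from Col-0 became 0.20. Without cngc19 replicate 3, that of cngc19 from Col-0 became -1.70 and that of cngc1-3 from cngc19 became 0.41. Without Col-0 replicate 3, cngc19 minus Col-0 became -1.003, and with any 1 array left out it ranged from -1.70 to 1.81. Against Col-0 replicate 1 alone, the differences were -4.27 in cngc1-3 and -2.67 in cngc19.

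Markers of green tissue ran the other way on the same arrays. Of 12 listed shoot markers, 4 had a probe set of their own: LHCB4.2, a light-harvesting protein, RCA, the activase of Rubisco, and PRK and SBPASE, enzymes of the Calvin cycle. Their summed signal was 206 to 388 on the cngc1-3 arrays, 569, 466 and 64.8 on cngc19 replicates 1, 2 and 3, and 46.0, 812 and 7981 on Col-0 replicates 1, 2 and 3. The sum was lowest on Col-0 replicate 1 and cngc19 replicate 3, the arrays where AT3G29410 was highest, and it was highest on Col-0 replicate 3, where AT3G29410 was lowest. No marker was listed at 0, and LHCB4.2 had 0.979 signal on cngc19 replicate 3. The part of these markers in the pattern of AT3G29410 was not tested.

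The gene next to AT3G29410 in the RefSeq gene order, AT3G29430, had its highest values on the same pair of arrays. It is listed here among the prenyl diphosphate synthases, which supply the substrates of terpene synthases. AT3G29430 had 7.02, 9.48 and 1.49 signal in cngc1-3, 2.20, 1.59 and 106 in cngc19, and 123, 14.8 and 4.17 in Col-0. Again cngc19 replicate 3 and Col-0 replicate 1 were high, at 11.2 and 12.9 times the highest of the other 5 mutant arrays. The Pearson correlation of AT3G29430 with AT3G29410 on the log2(signal + 16) scale was 0.96 over 9 arrays and 0.97 over the 7 arrays without Col-0 replicates 2 and 3, and Spearman's rho over 9 arrays was 0.75. The points share their arrays, and 2 of them carry most of the range. AT3G29430 stayed under the filter on dim probe sets and was not tested. Its log2 differences were -1.02 for cngc1-3 minus Col-0, -0.38 for cngc19 minus Col-0 and -0.64 for cngc1-3 minus cngc19.

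**Figure D2:**
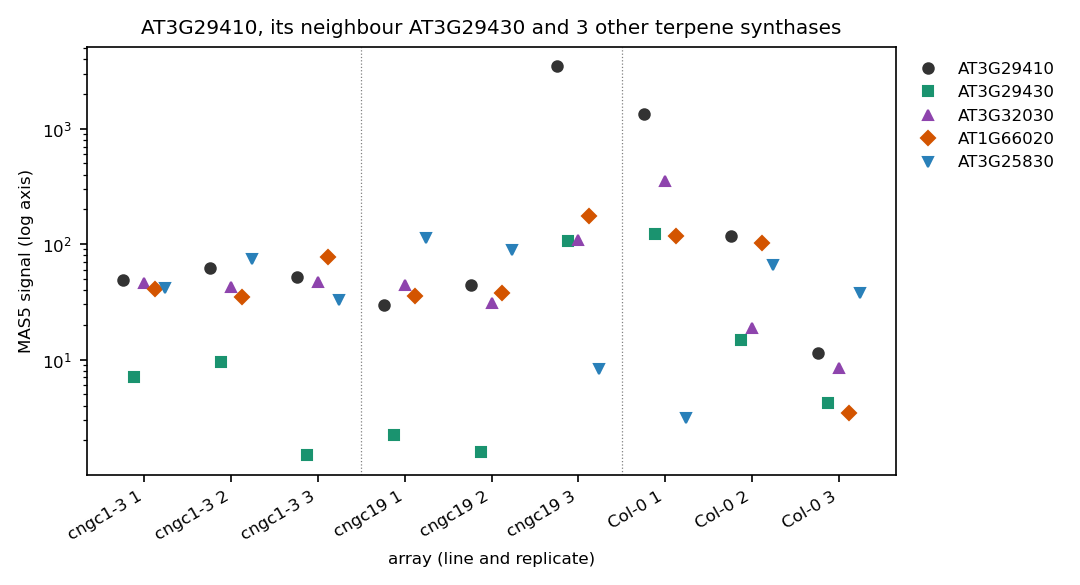
MAS5 signal (log axis) of AT3G29410, its neighbour AT3G29430 and 3 other terpene synthases on each of the 9 arrays, ordered cngc1-3, cngc19, Col-0, with 1 point per array. AT3G29430 is high on the same arrays as AT3G29410 (106 on cngc19 replicate 3 and 123 on Col-0 replicate 1), and AT3G25830 is low there, at 8.37 and 3.12.

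A high value on both arrays was common in the whole table. Col-0 replicate 1 and cngc19 replicate 3 were both above the other 5 mutant arrays for 4788 probe sets, or 21.0% of those that are not controls. Among the 9 members this held for AT3G29410 alone. It held for 3 of 9 other terpene synthases with a probe set of their own and for 3 of 5 prenyl diphosphate synthases.

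Among 7418 probe sets of 1 gene that passed the filter on dim probe sets, the 6 most like AT3G29410 over 9 arrays, by Pearson's correlation of log2(signal + 16), were AT5G39670 at 0.97, AT3G47040 at 0.97, AT3G03670 at 0.97, AT1G53620 at 0.97, AT1G23850 at 0.96 and PSY1R at 0.96. PSY1R is a leucine-rich repeat receptor kinase. AT3G03670 had 17.4, 12.5 and 16.2 signal in cngc1-3, 1.38, 8.48 and 1460 in cngc19, and 1494, 147 and 4.72 in Col-0. PSY1R had 40.7, 74.4 and 55.7 signal in cngc1-3, 29.1, 48.5 and 396 in cngc19, and 242, 38.6 and 14.9 in Col-0. Both were highest on cngc19 replicate 3 and Col-0 replicate 1, which follows largely from their choice by likeness to AT3G29410. In all, 48 probe sets passed a correlation of 0.9 over 9 arrays and 534 over the 7 arrays. None of the 6 stayed among the 6 most alike over the 7 arrays or by Spearman's rho.

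None of the 3 members that passed the filter, AT3G29410, AT5G48110 and AT1G31950, was called in any of the 3 comparisons by limma at a Benjamini-Hochberg adjusted p under 0.05, where 0% of the 13648 tested probe sets was called in each. None of the 3 had an unadjusted p under 0.05, which 3301 probe sets had for cngc1-3 minus Col-0, 2464 for cngc19 minus Col-0 and 13 for cngc1-3 minus cngc19. The filter was a mean log2(signal + 16) over all 9 arrays at or above the 40th percentile, and the other 6 members fell under it. With no filter, an unadjusted p under 0.05 was found for 3 of 9 members for cngc1-3 minus Col-0, against 23.7% of all 22746 probe sets. It was found for 4 of 9 for cngc19 minus Col-0, against 20% of all, and for 0 of 9 for cngc1-3 minus cngc19, against 0.0879% of all, and no adjusted p passed the threshold.

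For all 9 members the median log2 difference was -1.29 for cngc1-3 minus Col-0, -1.11 for cngc19 minus Col-0 and 0.17 for cngc1-3 minus cngc19, against -0.42, -0.38 and -0.01 over all 22746 non-control probe sets. With Col-0 replicate 1 as the only wild-type array, the member medians were -0.06 in cngc1-3 and -0.26 in cngc19, against -0.04 in both over all non-control probe sets. The mutant mean was below the Col-0 mean for 6 members and above it for 3 in each line, while 67.6% of all non-control probe sets were lower in cngc1-3 and 65.6% in cngc19, so the members' share was near that of all. It was lower in both lines for 5 members and higher in both for 2. The comparisons with Col-0 share the 3 Col-0 arrays.

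**Figure D3:**
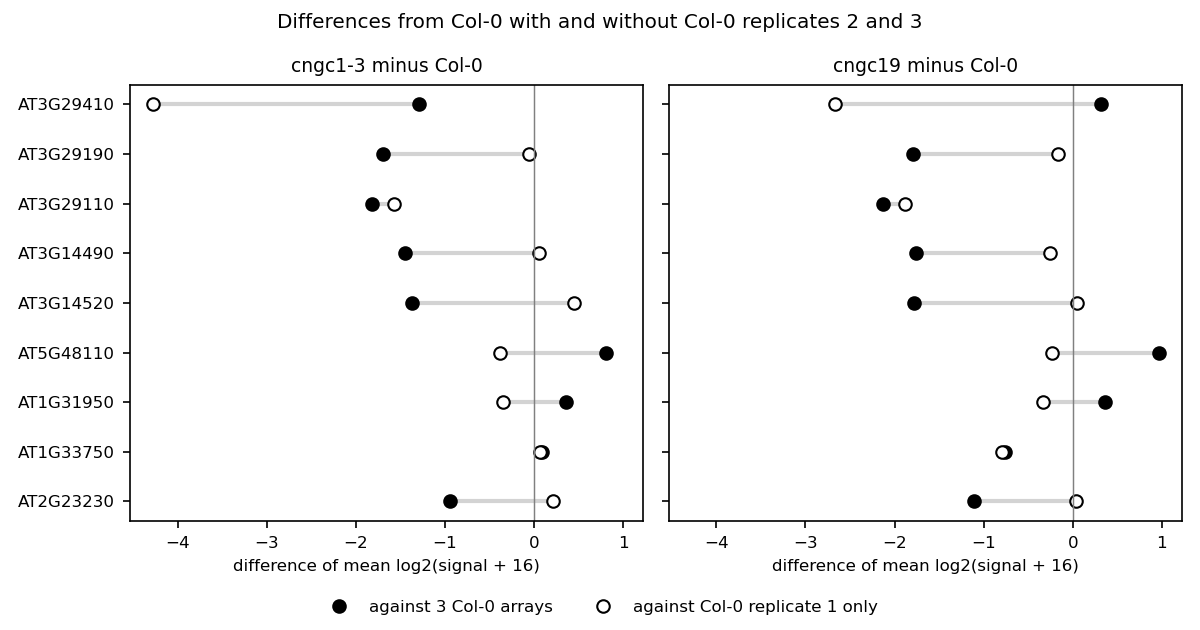
Difference of mean log2(signal + 16) of each member, cngc1-3 minus Col-0 on the left and cngc19 minus Col-0 on the right, against all 3 Col-0 arrays (filled points) and against Col-0 replicate 1 alone (open points). AT3G29110 stays near the same value in both (-1.82 and -1.57 in cngc1-3), whereas AT3G29410 moves to -4.27 and 5 of 9 members change sign in each panel.

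AT3G29110 was the member whose arrays separated both mutant lines from Col-0. It had 6.23, 5.31 and 29.7 signal in cngc1-3, 9.00, 9.57 and 1.80 in cngc19, and 66.8, 179.6 and 43.0 in Col-0. All 6 mutant arrays lay below all 3 Col-0 arrays, and cngc1-3 replicate 3 came nearest to them. The log2 difference was -1.82 in cngc1-3 and -2.13 in cngc19, and -1.57 and -1.88 against Col-0 replicate 1 alone. Over all 21 alternative settings it stayed between -2.86 and -0.97 in cngc1-3 and between -3.61 and -1.09 in cngc19. Those of filter, trend and block left both values unchanged. So did fitting only the lines compared or leaving out arrays of the line not compared. The array weights did not act by array on these differences. None of these settings is a check of the values. The probe set was under the filter. With no filter, limma gave a Benjamini-Hochberg adjusted p of 0.196 in cngc1-3 and 0.248 in cngc19. Among all non-control probe sets, 14.3% had every cngc1-3 array below every Col-0 array and 11.9% had every cngc19 array below every Col-0 array. The share with both orders at once was not counted. Of the 9 members, 1 had such an order in cngc1-3 and 3 in cngc19 (AT3G29190, AT3G29110 and AT3G14490).

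Near AT3G29110 in the gene order, the neighbour of most similar pattern within 5 protein-coding genes on either side was AT3G29140, 2 genes away. AT3G29140 had 7.53, 8.77 and 25.1 signal in cngc1-3, 8.63, 2.51 and 6.76 in cngc19, and 28.6, 289 and 42.1 in Col-0. It too was below all Col-0 arrays in both mutant lines, but it was picked for its likeness to AT3G29110. Of the 7 neighbours with a probe set of their own, 6 had a positive correlation with AT3G29110 over 9 arrays, with a median of 0.80. Over the 7 arrays without Col-0 replicates 2 and 3, the neighbours other than AT3G29140 had 0.24 to 0.46. The correlation of AT3G29140 with AT3G29110 was 0.93 over 9 arrays and 0.88 over 7.

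A further 4 members were dim on most arrays and bright on Col-0 replicate 2. AT3G29190 had 0.984, 3.12 and 4.46 signal in cngc1-3, 1.67, 1.11 and 1.68 in cngc19, and 3.60, 169.7 and 45.4 in Col-0. Col-0 replicates 2 and 3 stood above the other 7 arrays, and Col-0 replicate 1 was within the range of the cngc1-3 arrays. The log2 difference of -1.69 in cngc1-3 and -1.80 in cngc19 became -0.06 and -0.16 against Col-0 replicate 1 alone.

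AT3G14490 and AT3G14520 lie 2 genes apart, with the listed prenyl diphosphate synthase AT3G14510 between them. AT3G14490 had 11.3, 2.34 and 3.13 signal in cngc1-3, 0.726, 1.02 and 1.63 in cngc19, and 4.49, 102 and 64.6 in Col-0. AT3G14520 had 0.609, 4.57 and 16.7 signal in cngc1-3, 0.343, 1.29 and 1.08 in cngc19, and 0.324, 152 and 55.0 in Col-0. In both, Col-0 replicates 2 and 3 were high while Col-0 replicate 1 lay within the range of the mutant arrays or below it. AT3G14510 had 9.82, 5.19 and 2.09 signal in cngc1-3, 0.486, 13.8 and 30.1 in cngc19, and 16.05, 144 and 57.5 in Col-0, with the same arrays on top. The log2 differences of AT3G14490 from Col-0 were -1.45 in cngc1-3 and -1.76 in cngc19, and 0.05 and -0.26 against Col-0 replicate 1 alone. For AT3G14520 they were -1.37 and -1.78, and 0.45 and 0.05 against that array.

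AT2G23230 had 10.2, 7.80 and 2.56 signal in cngc1-3, 1.83, 2.19 and 9.10 in cngc19, and 3.55, 122 and 14.3 in Col-0. Here too Col-0 replicate 2 was highest, with Col-0 replicate 3 next. The log2 difference was -0.94 in cngc1-3 and -1.11 in cngc19, and 0.21 and 0.04 against Col-0 replicate 1 alone.

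In all, 6 of 9 members were highest on Col-0 replicate 2, against 40.8% of all non-control probe sets. Of the 9, 6 had Col-0 replicate 2 above all 6 mutant arrays and 5 had Col-0 replicate 3 above them, against 52.6% and 47.7% of all. With Col-0 replicate 1 this held for 1 member, against 16.3% of all. Many other probe sets were thus high on the same arrays, and the part of array quality in the members' values was not tested.

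How far the dim members moved together depended on the same arrays. AT3G14520 correlated with AT3G29190 at 0.97 over 9 arrays and 0.72 over the 7 without Col-0 replicates 2 and 3. The correlation of AT3G14490 with AT3G29190 was 0.95 over 9 arrays and -0.12 over 7. That of AT3G14520 with AT3G14490 was 0.93 and -0.09. AT2G23230 and its neighbour AT2G23210 had 0.93 over 9 arrays and -0.33 over 7. AT2G23230 had 0.85 over 9 arrays and 0.55 over 7 with AT3G14490. With AT3G29190 it had 0.92 and -0.29, and with AT3G14520 it had 0.86 and -0.23. Among AT3G29190, AT3G14490, AT3G14520 and AT2G23230, the pairs AT3G14520 with AT3G29190 and AT2G23230 with AT3G14490 kept a positive correlation over the 7 arrays. The other pairs of these members did not. AT3G29110 and AT1G33750, also under the filter, are left out of these pairs.

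AT5G48110 and AT1G31950 were measured above the 40th percentile on every mutant array and were low on Col-0 replicate 3. AT5G48110 had 42.7, 42.7 and 83.3 signal in cngc1-3, 49.9, 69.5 and 67.7 in cngc19, and 75.5, 19.3 and 3.64 in Col-0. Its mean was 56.3 ± 23.4 in cngc1-3, 62.4 ± 10.8 in cngc19 and 32.8 ± 37.8 in Col-0 (SD, n = 3 each). Col-0 replicate 1 lay within the range of cngc1-3 and above all cngc19 arrays, and Col-0 replicates 2 and 3 were below all 6 mutant arrays.

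The log2 difference of AT5G48110 was 0.81 (SE 0.55) in cngc1-3 and 0.96 in cngc19 against 3 Col-0 arrays, and -0.39 and -0.23 against Col-0 replicate 1 alone. It was the single member called under any setting tried, but at most 3 members passed the filter in a setting, and in the fit with no filter, which held all 9, none was called. Without Col-0 replicate 1, when only Col-0 replicates 2 and 3 stood for the wild type, limma gave 1.41 in cngc1-3 with an adjusted p of 0.0282 and 1.56 in cngc19 with an adjusted p of 0.0210. In the same setting 4810 and 4448 of the 13648 probe sets were called.

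AT1G31950 had 23.6, 35.1 and 51.7 signal in cngc1-3, 27.6, 27.9 and 56.0 in cngc19, and 49.4, 29.9 and 5.47 in Col-0. The 3 lines overlapped, and Col-0 replicate 3 was lowest. The log2 difference was 0.36 in cngc1-3 and 0.37 in cngc19, and -0.34 in both against Col-0 replicate 1 alone. AT1G31950 and AT5G48110 correlated at 0.86 over 9 arrays and 0.71 over 7. AT1G31950 was the member most like AT3G29410, at 0.70 over 9 arrays and 0.74 over 7. AT5G48110 had 0.45 and 0.41, and the other 6 members had -0.27 to -0.002 over 9 arrays.

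For AT1G33750 the arrays of the mutant lines did not overlap, with 20.8, 38.7 and 32.5 signal in cngc1-3, 8.44, 14.5 and 5.86 in cngc19, and 28.0, 54.4 and 9.86 in Col-0. Every cngc1-3 array was above every cngc19 array, and the Col-0 arrays overlapped both lines. The cngc19 signals were dim, each below the 40th percentile of its array, at 21.0, 22.2 and 27.2. The cngc1-3 signals were above theirs, at 20.0, 20.7 and 24.5. The difference of cngc1-3 minus cngc19 was 0.86 on the log2 scale and stayed between 0.36 and 1.62 over the 21 alternatives. Many of these left it unchanged and are no check of it, namely those of filter, trend and block. The array weights are no check either, since they did not act by array on this difference. Fitting only these lines or leaving out Col-0 arrays also left it unchanged. The log2 difference was 0.09 for cngc1-3 minus Col-0 and -0.77 for cngc19 minus Col-0, and 0.07 and -0.80 against Col-0 replicate 1 alone. AT1G33750 was under the filter, and with no filter limma gave an unadjusted p of 0.0926 for cngc1-3 minus cngc19, which did not pass. AT3G14490 was the other member with every cngc1-3 array above every cngc19 array. It was dim there, below the array's 40th percentile on all 6 mutant arrays. Of all non-control probe sets, 4.69% had this order, while 3.53% had the opposite order and no member did. No member had every array of cngc1-3 or of cngc19 above every Col-0 array, an order held by 8.15% and 4.66% of all.

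Of 22 further terpene synthase loci listed from background knowledge, 9 had a probe set of their own, 4 passed the filter and none was called. Their median log2 difference was -0.16 for cngc1-3 minus Col-0, 0.05 for cngc19 minus Col-0 and -0.11 for cngc1-3 minus cngc19. In cngc1-3 2 were higher and 7 lower than Col-0, and in cngc19 5 were higher and 4 lower. AT1G66020 and AT3G32030 had a pattern near that of AT3G29410.

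AT1G66020 had 40.9, 35.2 and 77.1 signal in cngc1-3, 35.7, 37.8 and 177 in cngc19, and 117, 101 and 3.47 in Col-0. AT3G32030, whose probe set can match several transcripts, had 46.5, 42.3 and 47.2 signal in cngc1-3, 44.5, 31.1 and 108 in cngc19, and 353, 18.9 and 8.53 in Col-0. Both were raised on cngc19 replicate 3 and Col-0 replicate 1 over the other 5 mutant arrays. With AT3G29410 they correlated at 0.83 and 0.79 over 9 arrays, and at 0.93 and 0.81 over 7.

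AT3G25830, annotated TPS-CIN, a 1,8-cineole synthase, ran opposite to AT3G29410. RefSeq gives the same symbol to the nearly identical gene AT3G25820, so the source of its signal is uncertain. AT3G25830 had 41.8, 74.0 and 32.8 signal in cngc1-3, 112, 88.7 and 8.37 in cngc19, and 3.12, 66.3 and 37.4 in Col-0. It was lowest on Col-0 replicate 1 and cngc19 replicate 3, and its correlation with AT3G29410 was -0.79 over 9 arrays and -0.88 over 7.

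AT1G70080 and AT4G20200 behaved like the dim members. AT1G70080 had 11.4, 4.50 and 14.7 signal in cngc1-3, 10.7, 2.63 and 27.8 in cngc19, and 23.9, 295 and 103 in Col-0. AT4G20200 had 4.40, 1.18 and 2.83 signal in cngc1-3, 0.66, 4.97 and 0.906 in cngc19, and 0.541, 109 and 61.9 in Col-0. Both were highest on Col-0 replicates 2 and 3. AT4G20230 was even across the mutants, with 117, 119 and 112 signal in cngc1-3, 91.7, 92.5 and 108 in cngc19, and 145, 22.0 and 46.0 in Col-0. Its cngc1-3 arrays all lay above its cngc19 arrays. AT5G44630, AT3G25810 and AT1G48800 ranged from 0.908 to 73.9 over the 9 arrays.

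**Figure D4:**
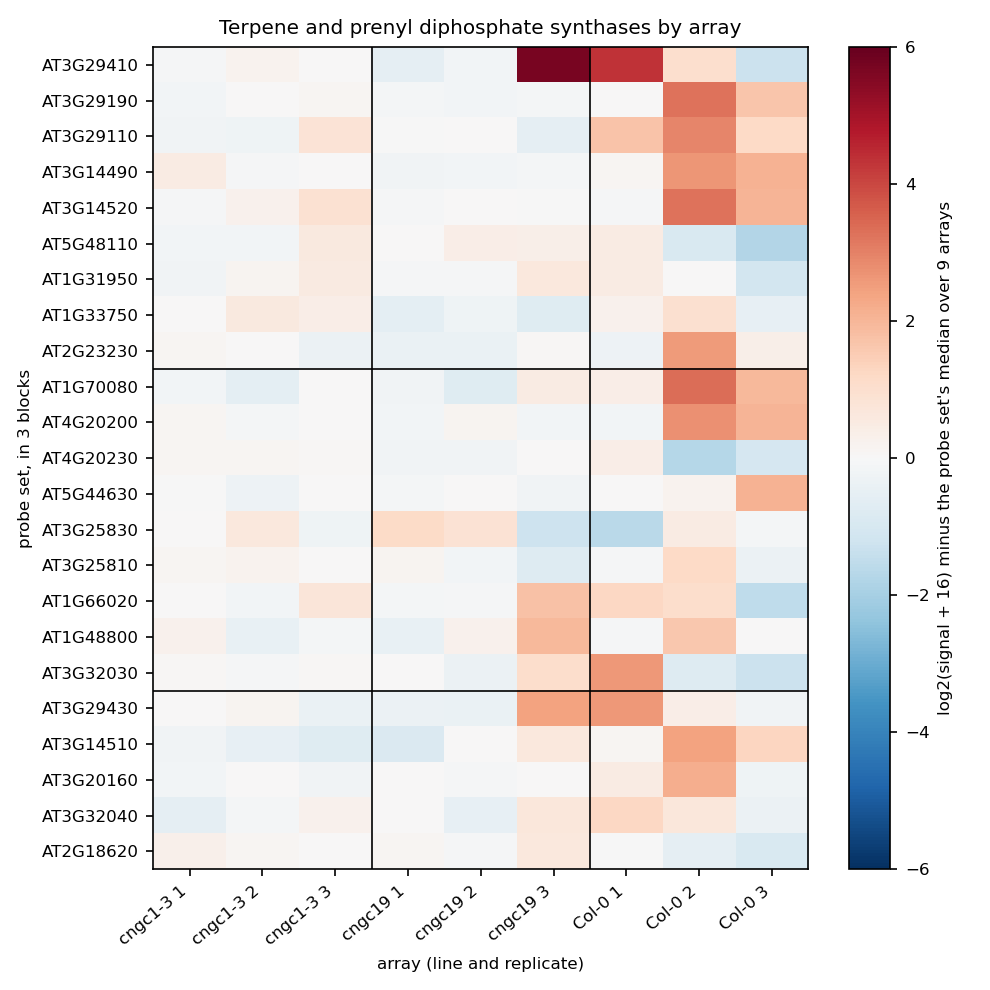
Colour shows log2(signal + 16) minus each probe set's median over the 9 arrays, with arrays in columns ordered cngc1-3, cngc19, Col-0, and probe sets in rows as 3 blocks, the 9 members, the 9 other terpene synthases and the 5 prenyl diphosphate synthases. AT3G29410 and AT3G29430 are red on cngc19 replicate 3 and Col-0 replicate 1, and most of the dim members are red on Col-0 replicate 2.

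Genes that supply the substrates were thinly covered. Of 13 listed prenyl diphosphate synthases, 5 had a probe set of their own, 1 passed the filter and none was called. Their median log2 difference from Col-0 was -0.93 in cngc1-3 and -0.47 in cngc19. In each line 1 was higher and 4 lower than Col-0, while 67.6% and 65.6% of all non-control probe sets were lower. All 5 were lower in cngc1-3 than in cngc19, against 51.8% of all. Their summed signal was 76.9, 84.7 and 81.5 in cngc1-3 and 76.4, 67.1 and 260 in cngc19. The 260 was on cngc19 replicate 3, whose label is open to doubt. The order of the lines without that array was not counted. AT3G32040 had 20.3, 34.0 and 48.5 signal in cngc1-3, 37.5, 21.4 and 69.9 in cngc19, and 111, 69.5 and 26.4 in Col-0, and was highest on Col-0 replicate 1.

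Of 13 listed genes of the mevalonate pathway and farnesyl diphosphate synthesis, 2 had a probe set of their own, both passed the filter and none was called. AT1G31910 had 584, 557 and 862 signal in cngc1-3, 565, 619 and 735 in cngc19, and 652, 6.17 and 448 in Col-0. AT3G54250 had 119, 128 and 136 signal in cngc1-3, 95.3, 107 and 101 in cngc19, and 98.3, 23.3 and 12.7 in Col-0. The mutant arrays of both were close to Col-0 replicate 1, and their median log2 difference of 1.66 in cngc1-3 and 1.49 in cngc19 became 0.17 and -0.00 against that array alone. Of 18 listed triterpene and sterol cyclases, 2 had a probe set of their own, and none of 7 listed genes of the plastid methylerythritol phosphate pathway did.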

How the data were processed

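The 9 arrays were analysed from the authors' deposited table, which holds linear signal intensities. The submitters' processing notes name MAS5 and GCOS for it. The genome build and annotation used upstream are not given in the sources used here. Trimmed mean signal was 98.9 to 99.6 on every array, so the deposited scaling was kept. Sample titles gave the line and the replicate number.

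The members and gene lists were chosen with earlier results of these data known, so member values are a description. Signals were analysed as log2(signal + 16), which understates the change of dim probe sets. All 9 arrays entered one limma 3.58.1 model in R 4.3.3 (lmFit, eBayes with intensity trend), two-sided, over the 13648 probe sets at or above the 40th percentile of mean log2 signal, with calls at 0.05 after Benjamini-Hochberg adjustment. The test was checked on simulated data for cngc1-3 minus Col-0 over 13648 probe sets. With each probe set's own residual SD, it recovered 0 of 40 at a log2 change of 1, 1 of 40 at 2 and 16 of 40 at 3. That noise was independent between probe sets and equal in the 3 lines. On these arrays the median SD was 0.96 in Col-0 against 0.28 in cngc1-3 and 0.27 in cngc19, so recovery may differ there. With a residual SD of 0.2 it recovered 40 of 40 at each. Only probe sets with 1 gene in the platform annotation were named (13513), of which 13436 matched a locus in the RefSeq table, which also gave the gene order. All members were named. From the other lists terpene synthases, up to 4 genes of smallest unadjusted p, the 6 genes most like AT3G29410 and the neighbour most like each member could be named. AT3G14510 and AT3G32040 were described for their place or pattern, seen in the values. Alternatives changed the pseudocount, filter, scaling, weights and the arrays used. The array weights acted by array in the calls only. The members' differences were not weighted by array in that setting. They equalled those of the main fit for that reason and do not show how weighting would change them. The number of arrays limits the precision.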

Additional observations from a re-analysis of the deposited data

How the results depend on the processing

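Counts of called probe sets, 0 in each comparison of lines and in the F-test over the 3 lines, rose under limma's array weights to 1228 for cngc1-3 minus Col-0, 1047 for cngc19 minus Col-0, 9 for cngc1-3 minus cngc19 and 482 in the F-test. With 1 array left out at a time they ran from 0 to 4810, from 0 to 4448, from 0 to 0 and from 0 to 3748. The highest counts came without Col-0 replicate 1, and without cngc19 replicate 3 they were 14, 11, 0 and 12. With replicate 3 of both mutant lines left out, 1 probe set was called for cngc19 minus Col-0. The cause was not tested. The median log2 difference of the members ranged from -1.51 to -0.61, from -1.70 to -0.41 and from 0.04 to 0.33 when 1 array was left out. For cngc1-3 and cngc19 minus Col-0 it was -1.53 and -2.18 with a pseudocount of 1, -0.71 and -0.54 with one of 64, -0.82 and -0.78 after quantile normalization, and -0.77 and -0.67 with arrays centred on their medians. It was -0.060 and -0.26 against Col-0 replicate 1 alone, where 5 of 9 members changed sign in each. With the replicate number as a block, 0 probe sets were called in every comparison, with 3171, 2476 and 15 at an unadjusted p under 0.05. Deviations of same-numbered arrays correlated at -0.23 to 0.19, so the numbers were not taken as pairs.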
